A study of Mus musculus with 7 samples.

Results

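The 49 genes described here act in mitosis and chromosome segregation. They were chosen by symbol, as regulators of mitotic entry, chromosomal passenger, kinetochore and checkpoint proteins, spindle motors, anaphase regulators, cytokinesis proteins and chromosome structure proteins, and were read from a table of 49315 genes by their Ensembl IDs. All 49 were found and all 49 passed the filter on low counts, with 924 to 171525 reads per gene and library. The libraries were poly(A)-selected RNA sequencing of mouse bone marrow after a chow diet and hindlimb ischemia, a surgical interruption of blood flow to the leg. Of the 7 libraries, 3 (flox) had both alleles of the miR-181a2b2 microRNA cluster floxed (genotype miR-181a2b2flox/flox, titled WT) and 4 (KO) lacked it (miR-181a2b2-/-). Both groups share the diet and the surgery, so there is no unoperated group here. The age of the mice, how the deletion was made and whether each library is a separate animal are not given in the labels used here, and a p-value here speaks only to the variation among these 7 libraries, part of which could be technical.

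The source label is bone marrow, whereas the extraction text of the labels names white adipose tissue. Summed over 16 erythroid genes, the libraries held 37105 to 77104 CPM (reads scaled to a library of equal size, using TMM-scaled totals). Of 7 adipocyte markers 6 were tested, and these summed to 101 to 165 CPM, with means of 136 CPM in flox and 132 CPM in KO. Of those 6, 5 were lower in KO. At an unadjusted edgeR p under 0.05 there was 1 (16.7%, against 14.1% of all tested genes), and 0 after adjustment. Pnpla2, a lipase that many cell types express, stood at 72.9 to 105 CPM. Adipoq, the adipocyte hormone adiponectin, stood at 4.22 to 19.7 CPM, and Plin1, the lipid droplet coat gene, at 0.084 to 0.916 CPM. Flox 1 was the highest library for both, and Pnpla2 gave 72.9 of its 153 CPM. Total counts were 43110251 to 51688514 per library. On a principal component analysis flox 1 stood apart, at -58.7 on the first component (34.7% of the variance). Flox 2 and flox 3 stood at -14.2 and -5.48 and the KO libraries at 16.6 to 23.2, so this component also had the groups apart. Values are therefore also given without flox 1 where that matters.

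A dividing cell makes these transcripts in one wave, from late S phase into mitosis, and destroys many of the proteins on the way out. Cyclins A2, B1 and B2 activate the kinase CDK1 to start mitosis; kinetochores then tie chromosomes to the spindle, and a checkpoint holds the cell until every pair is attached. The APC/C ubiquitin ligase with its activator CDC20 then removes securin and cyclin B, separase cuts cohesin, and the midzone proteins build the division plane. In bone marrow the dividing cells are mainly erythroblasts, promyelocytes and other early myeloid cells, and B cell precursors. In bulk RNA, fewer dividing cells and less of a transcript per dividing cell cannot be told apart.

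The comparison of KO with flox asked whether loss of the cluster went with a different level of mitotic transcripts in marrow, and no gene of the set passed the adjusted threshold. Summed over the 49 genes, flox 1 to 3 stood at 13126, 10906 and 11587 CPM and KO 1 to 4 at 11948, 11219.8, 13078 and 12225 CPM. With all 49 genes, the highest library was flox and the second highest KO, and the whole KO range lay inside the flox range. This rested on Mki67, which gave 3417 of the 13126 CPM of flox 1. Without Mki67, KO 3 was the highest library at 9803 CPM, above flox 1 at 9709 CPM, so the KO range reached above the flox range. Flox 2 stayed the lowest, at 8562 CPM. In the edgeR quasi-likelihood test over all 17920 tested genes, with Benjamini-Hochberg adjustment, 0 of 49 passed an adjusted p of 0.05, where 0.145% of all tested genes did (0.134% higher in KO and 0.0112% lower). DESeq2 and limma-voom also called 0. At an unadjusted edgeR p under 0.05 there was 1 of 49 (2.04%), against 14.1% of all tested genes (5.89% higher in KO and 8.17% lower). The lowest adjusted p in the set was 0.292.

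The median log2 fold change of the 49 genes, KO minus flox, was 0.016, against -0.0080 over all tested genes, with 30 higher and 19 lower. In size, 44 of the 49 lay under 0.1 from 0 on the log2 scale, and the median absolute change was 0.048. Among the 6854 tested genes expressed at least as highly as the lowest of the 49, the median absolute change was 0.083. Standard errors ran from 0.06 to 0.16. In 48 of 49 genes the whole 95% interval lay within 0.5 of 0 on the log2 scale, and in 40 it lay within 0.3. The exception at 0.5 was Cdc25b. The count of 30 higher moved with single libraries and with the scaling: it was 21 without flox 2, 23 without KO 3, 38 without KO 2 and 37 when libraries were scaled by total counts alone. Directions of single genes and of the role groups below are therefore descriptions of values near 0.

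**Figure D1:**
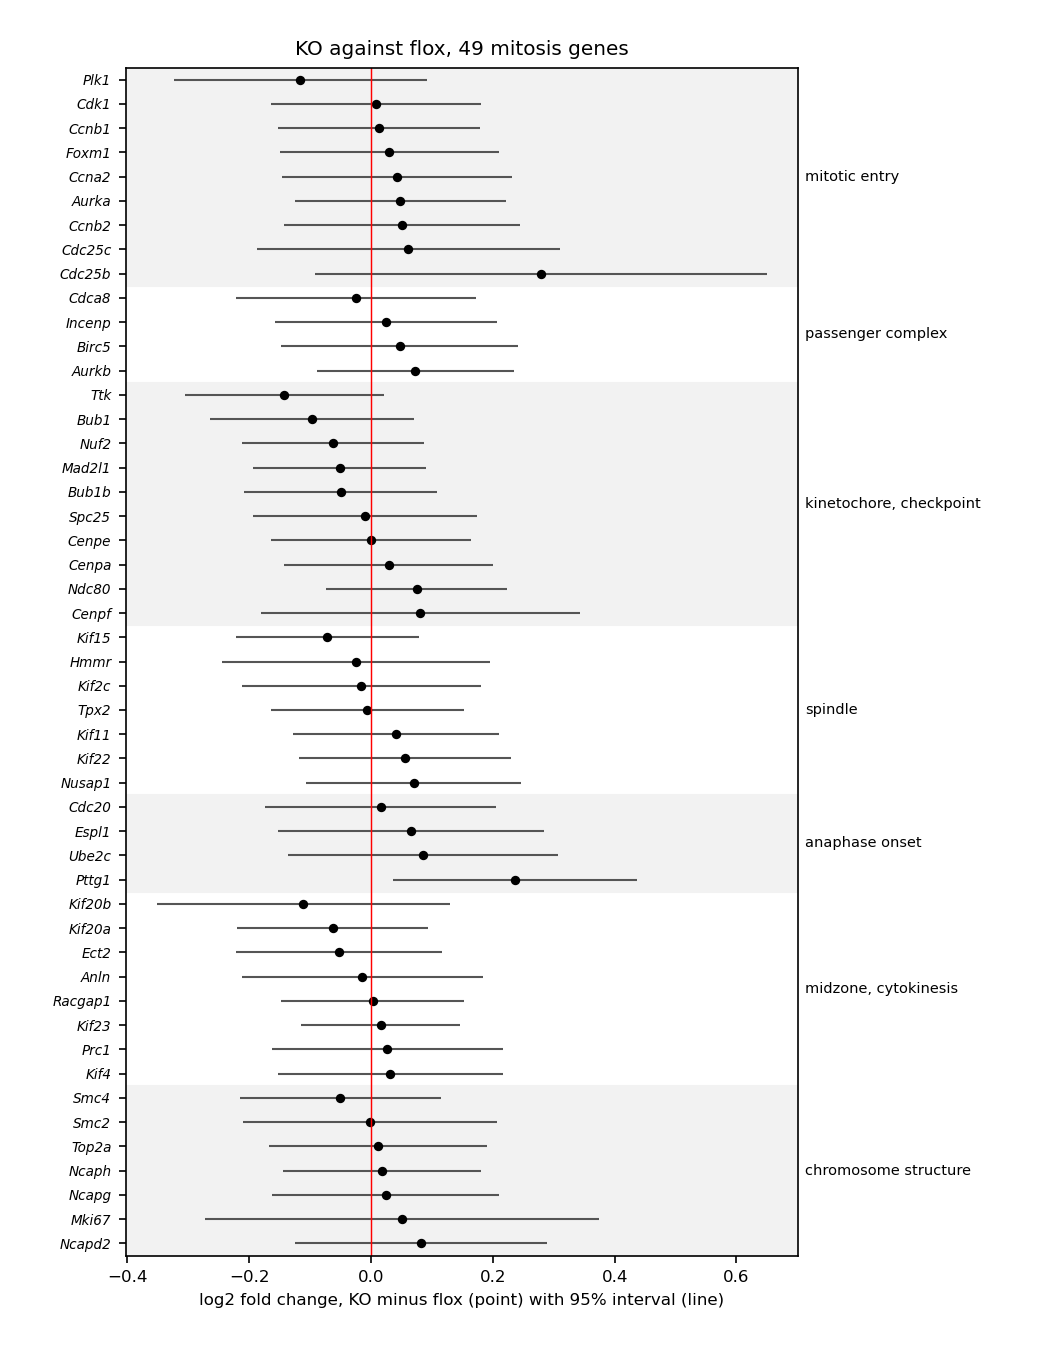
Log2 fold change of KO minus flox (x axis) for each of the 49 mitosis genes (y axis, grouped by role), points for the edgeR estimate and lines for its 95% interval. Every interval but that of Pttg1 crosses 0, and the widest is that of Cdc25b (-0.09 to 0.65).

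What these genes share in their promoters is shown first, because they are known as a co-regulated set. The CHR element near their start sites binds the DREAM repressor in resting cells and MuvB with B-MYB and FOXM1 in dividing cells, and CCAAT boxes bind the factor NF-Y. RefSeq promoters (build GRCm38.p6, 250 bases before to 50 after the start) matched 41 of the 49 genes, taking the most upstream start of each. The CHR was searched as TTTGAA, its complement TTCAAA, and TTTAAA, which reads the same on both strands. The CCAAT box was searched as CCAAT and its complement ATTGG. Words of the one motif can overlap words of the other by a base or more and were counted separately. At least 1 CHR word was found in 34 of 41 promoters (82.9%), against 27.9% of all 27025 promoters. At least 2 CCAAT boxes were found in 19 (46.3%), against 12.1%, and 18 (43.9%) held at least 2 CCAAT boxes and a CHR word, against 3.25%. A match is a description of the letters, not a bound site.

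**Figure D2:**
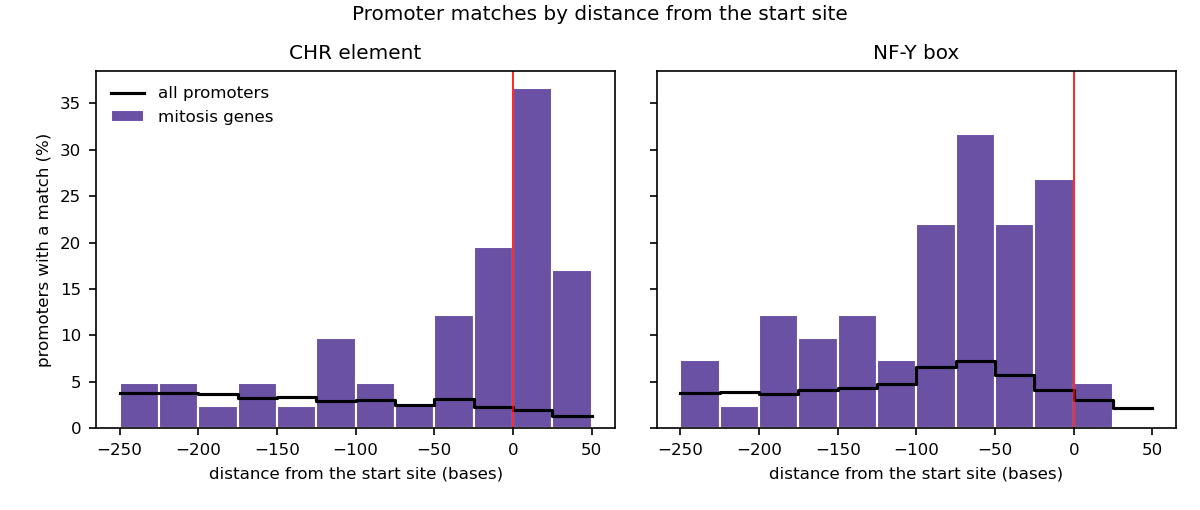
Share of promoters with a match (y axis, %) in steps of 25 bases by distance from the start site (x axis, bases; the red line is the start), bars for 41 mitosis genes and the black line for all 27025 promoters. The CHR element peaks in the first 25 bases after the start, at 36.6% of the mitosis genes against 1.95% of all promoters, and the NF-Y box between 75 and 51 bases before it, at 31.7% against 7.29%.

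The bases before the start are printed for 5 genes that hold at least 1 CCAAT box and 1 CHR word there, and for Pttg1. Pttg1 was the 1 gene whose KO and flox libraries did not overlap. The start is that of RefSeq. For Pttg1 the GENCODE gene begins further upstream and contains all the bases printed, and the bases before that GENCODE start were not searched. Capitals mark the CHR and CCAAT words, and the bases after the start were searched but are not shown.
Cdk1 (chr10:69352913-69353162, - strand): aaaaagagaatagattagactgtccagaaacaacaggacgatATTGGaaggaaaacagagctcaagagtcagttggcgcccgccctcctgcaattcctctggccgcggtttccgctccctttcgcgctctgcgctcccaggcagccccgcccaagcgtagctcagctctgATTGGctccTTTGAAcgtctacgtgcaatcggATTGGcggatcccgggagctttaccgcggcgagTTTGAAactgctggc
Ccnb2 (chr9:70421555-70421804, - strand): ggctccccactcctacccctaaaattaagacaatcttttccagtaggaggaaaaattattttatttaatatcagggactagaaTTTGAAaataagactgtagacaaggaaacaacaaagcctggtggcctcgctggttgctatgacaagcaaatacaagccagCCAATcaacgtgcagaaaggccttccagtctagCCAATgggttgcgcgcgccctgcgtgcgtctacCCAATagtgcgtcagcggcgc
Top2a (chr11:99024190-99024439, - strand): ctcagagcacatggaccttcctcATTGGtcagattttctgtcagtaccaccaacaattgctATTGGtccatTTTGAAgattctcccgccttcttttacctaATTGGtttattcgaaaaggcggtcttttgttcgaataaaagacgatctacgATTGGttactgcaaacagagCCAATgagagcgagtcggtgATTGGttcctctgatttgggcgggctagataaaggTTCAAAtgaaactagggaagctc
Cdc20 (chr4:118437344-118437593, - strand): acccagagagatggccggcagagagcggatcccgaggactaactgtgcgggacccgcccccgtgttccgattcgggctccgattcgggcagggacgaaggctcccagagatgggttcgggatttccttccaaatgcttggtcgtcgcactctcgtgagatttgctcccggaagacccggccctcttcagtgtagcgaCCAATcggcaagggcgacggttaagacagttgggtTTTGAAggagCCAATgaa
Plk1 (chr7:122159185-122159434, + strand): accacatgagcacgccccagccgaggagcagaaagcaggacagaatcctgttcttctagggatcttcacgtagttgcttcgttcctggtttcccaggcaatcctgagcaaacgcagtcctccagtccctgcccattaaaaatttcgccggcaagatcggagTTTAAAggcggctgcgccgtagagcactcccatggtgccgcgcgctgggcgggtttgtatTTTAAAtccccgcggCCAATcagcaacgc
Pttg1 (chr11:43425982-43426231, - strand): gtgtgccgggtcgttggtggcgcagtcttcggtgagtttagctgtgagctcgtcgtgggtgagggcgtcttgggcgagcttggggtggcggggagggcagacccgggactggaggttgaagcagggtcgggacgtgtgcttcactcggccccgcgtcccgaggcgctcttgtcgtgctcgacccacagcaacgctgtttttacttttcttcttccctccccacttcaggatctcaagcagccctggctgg

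The 250 printed bases held 3 CCAAT boxes and 2 CHR words in Cdk1, 3 and 1 in Ccnb2, 6 and 2 in Top2a, 2 and 1 in Cdc20, and 1 and 2 in Plk1. With the 50 bases after the start, Ccnb2 had 2 CHR words and Plk1 had 3. Over all 300 bases the RefSeq window of Pttg1 held neither word, and the same was true of Mad2l1, Ncaph, Nuf2 and Nusap1 (5 of 41, 12.2%, against 45.1% of all promoters). Among those 5 genes the log2 fold changes ran from -0.062 for Nuf2 to 0.24 for Pttg1.

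Mitotic entry regulators (9 genes) numbered 8 above and 1 below 0 (KO minus flox, median log2 fold change 0.042); without flox 2 or without KO 3 there were 5 above, and without flox 1 the median was 0.069. Cdk1, the mitotic kinase itself, stood at 173, 159 and 167 CPM in flox 1 to 3 and 155, 159, 184 and 169.9 CPM in KO 1 to 4. Its partner Ccnb1, cyclin B1, stood at 187, 163 and 169.6 CPM in flox 1 to 3 and 175, 168, 188 and 169 CPM in KO 1 to 4. The groups overlapped in both, and the log2 fold changes were 0.008 (SE 0.08, adjusted p = 0.98) for Cdk1 and 0.013 (SE 0.07, adjusted p = 0.962) for Ccnb1. Ccnb2, cyclin B2, stood at 203, 179.7 and 189.6 CPM in flox 1 to 3 and 181, 184, 220.5 and 204 CPM in KO 1 to 4. Its highest library was KO 3 and its lowest flox 2, with the other KO libraries inside the flox range or just above it. Ccna2, the cyclin of S phase and mitotic entry, ran from 311 to 387 CPM in flox and from 347 to 373 CPM in KO.

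Plk1, the polo-like kinase that drives centrosome maturation and mitotic entry, was the 1 lower gene of this group. It stood at 130.2, 130.2 and 118 CPM in flox 1 to 3 and 128, 106, 127 and 104 CPM in KO 1 to 4, with KO 2 and KO 4 below every flox library and KO 1 and KO 3 inside the flox range. Its log2 fold change was -0.12 (SE 0.09, adjusted p = 0.638). Aurka, the spindle pole kinase, stood at 86.4, 83.6 and 80.7 CPM in flox 1 to 3 and 93.0, 82.6, 91.5 and 78.5 CPM in KO 1 to 4, a change of 0.048 (SE 0.08, adjusted p = 0.844). Foxm1, the transcription factor of the late cell cycle, stood at 105, 114 and 105 CPM in flox 1 to 3 and 107, 102, 124 and 108 CPM in KO 1 to 4, with KO 3 above and KO 2 just below the flox range. Cdc25c, one of the phosphatases that activate CDK1, ran from 24.2 to 27.0 CPM in flox and from 22.1 to 31.0 CPM in KO.

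Cdc25b, the phosphatase that starts CDK1 activation (chromosome 2, 131186949 to 131198497, GRCm38), had the largest log2 fold change and the largest spread of the 49 genes. It stood at 313, 222 and 314 CPM in flox 1 to 3 and 314, 297, 434 and 329 CPM in KO 1 to 4. Flox 2 was low and KO 3 high, and the other 5 libraries lay between 297 and 329 CPM with flox and KO mixed. The log2 fold change was 0.28 (SE 0.16, adjusted p = 0.489), with a 95% interval of -0.09 to 0.65. It was 0.15 without flox 2 and 0.16 without KO 3. The same 2 libraries had the lowest and the highest summed erythroid markers, with 37105 CPM for flox 2 and 77104 CPM for KO 3. The part of that difference in the Cdc25b values was not tested.

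The chromosomal passenger complex corrects faulty spindle attachments and later marks the division plane. All 4 of its genes were highest in KO 3. Aurkb, its kinase, stood at 124, 118 and 121 CPM in flox 1 to 3 and 122, 124, 141 and 123 CPM in KO 1 to 4, with the other 3 KO libraries inside the flox range. Birc5, survivin, stood at 186, 161 and 186 CPM in flox 1 to 3 and 164, 180.0, 197 and 194 CPM in KO 1 to 4. The scaffold gene Incenp ran from 259 to 279 CPM in flox and from 258 to 310.4 CPM in KO, and Cdca8, borealin, from 154 to 165 CPM and from 140.3 to 178 CPM. The log2 fold changes ran from -0.024 for Cdca8 to 0.073 (SE 0.07, adjusted p = 0.718) for Aurkb.

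Kinetochore and spindle checkpoint genes (10 genes) had 7 of 10 below 0, with a median of -0.030, and 0 passed the test. Under scaling by total counts, upper quartile or median ratio 5 of the 10 were below 0, and without flox 1 the median was 0.014. Ttk, the MPS1 kinase that starts checkpoint signalling, had the lowest log2 fold change of the set. It stood at 42.4, 42.8 and 39.4 CPM in flox 1 to 3 and 40.8, 36.4, 37.6 and 35.8 CPM in KO 1 to 4. Only KO 1 lay inside the flox range and the other 3 KO libraries lay below it, yet the change of -0.14 (SE 0.07, adjusted p = 0.418) had an interval that crossed 0 (-0.31 to 0.02). Bub1, a checkpoint kinase, stood at 84.2, 78.1 and 73.1 CPM in flox 1 to 3 and 77.8, 72.5, 68.4 and 74.7 CPM in KO 1 to 4, lowest in KO 3 and highest in flox 1, a change of -0.10 (SE 0.07, adjusted p = 0.622). Bub1b, which encodes the checkpoint protein BUBR1, ran from 169 to 184 CPM in flox and from 160.1 to 183 CPM in KO. Mad2l1, the checkpoint protein MAD2, ran from 108 to 115 CPM and from 102 to 110.3 CPM.

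The NDC80 complex holds the microtubule at the kinetochore, and the changes of its subunit genes differed in sign, none of them past the test. Ndc80 stood at 63.7, 64.5 and 58.6 CPM in flox 1 to 3 and 64.7, 63.8, 68.5 and 65.3 CPM in KO 1 to 4, a log2 fold change of 0.075 (SE 0.07, adjusted p = 0.678). Nuf2, its direct partner, stood at 101, 96.2 and 89.6 CPM in flox 1 to 3 and 93.0, 88.1, 94.5 and 90.2 CPM in KO 1 to 4, a change of -0.062 (SE 0.07, adjusted p = 0.748). Per kb of exon, the ratio of Ndc80 to Nuf2 was 0.619, 0.655 and 0.638 in flox and 0.680, 0.707, 0.708 and 0.708 in KO. The KO ratios were all above the flox ratios, while each gene alone overlapped. Of 18 partner ratios, chosen after values were seen and not tested, the groups were apart only in this one and in that of Ncapd2 to Ncaph, condensin subunit genes. Taken singly, 13.6% of all tested genes had groups that did not overlap, so a separation of this kind was common in these libraries. Spc25, another subunit gene, ran from 59.8 to 73.1 CPM in flox and from 61.3 to 67.0 CPM in KO. Cenpa, the histone variant that marks centromeres, Cenpe, a kinetochore motor, and Cenpf, a kinetochore protein of late G2, had log2 fold changes of 0.029, -0.00015 and 0.081. Cenpf ran from 258 to 362 CPM in flox and from 293 to 357 CPM in KO.

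Spindle motors and assembly factors (7 genes) had 3 genes above and 4 below 0, with a median of -0.0057 that turned positive under the other scalings (0.016 by total counts) and was 0.072, with 5 of 7 above 0, without flox 1. Kif11, the motor that pushes spindle poles apart, stood at 372, 319 and 328 CPM in flox 1 to 3 and 361, 337, 356 and 344 CPM in KO 1 to 4, a change of 0.042 (SE 0.08, adjusted p = 0.868). Tpx2, which activates Aurora A on the spindle, stood at 246, 226 and 230.0 CPM in flox 1 to 3 and 240.1, 221, 247 and 224 CPM in KO 1 to 4, a change of -0.0057 (SE 0.07, adjusted p = 0.985). All 4 KO libraries of Kif11 lay inside the flox range, and those of Tpx2 spread across and just beyond it. Kif15, a motor that works beside Kif11, stood at 148, 137 and 132 CPM in flox 1 to 3 and 133, 129.6, 128 and 138 CPM in KO 1 to 4; 2 KO libraries lay just below the flox range, a change of -0.072 (SE 0.07, adjusted p = 0.696). Nusap1, a microtubule bundling protein, Kif22, a chromosome arm motor, Kif2c, a microtubule depolymerase, and Hmmr, a spindle protein, had log2 fold changes of 0.07, 0.056, -0.016 and -0.024.

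Regulators of anaphase onset (4 genes) were all above 0, with a median of 0.076. It was 0.13 without flox 1, and 0.015 with 3 of 4 above 0 without KO 3. Cdc20, the APC/C activator, stood at 149.9, 149 and 152 CPM in flox 1 to 3 and 139, 145, 175 and 150.2 CPM in KO 1 to 4: flox was tight, KO 3 was high and KO 1 low, a change of 0.016 (SE 0.08, adjusted p = 0.961). Ube2c, the ubiquitin-conjugating enzyme of the APC/C, stood at 260.2, 223 and 249 CPM in flox 1 to 3 and 233, 249, 302 and 251 CPM in KO 1 to 4, a change of 0.086 (SE 0.10, adjusted p = 0.771). Of its exons, 22.8% overlap the muscle gene Tnnc2 on the opposite strand; Tnnc2 stood at 0.30 CPM or less in every library. Espl1, separase, ran from 121 to 142 CPM in flox and from 119 to 154 CPM in KO.

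Pttg1, securin, the inhibitor that separase must lose before it can cut cohesin (chromosome 11, 43420250 to 43426251, GRCm38), was the 1 gene of 49 whose groups did not overlap (2.04%, against 13.6% of all tested genes; 6.22% with KO above and 7.41% with KO below). It stood at 23.6, 18.9 and 21.3 CPM in flox 1 to 3 and 25.9, 24.7, 25.8 and 24.1 CPM in KO 1 to 4. All 4 KO libraries lay above the highest flox library, and flox was the more variable group (21.3 ± 2.35 CPM, SD, n = 3, against 25.1 ± 0.869 CPM, SD, n = 4). The log2 fold change was 0.24 (SE 0.09, adjusted p = 0.292), with a 95% interval of 0.04 to 0.44, and it did not pass. An exact two-sided permutation test gave p = 0.0286, which is the smallest that 35 divisions of the libraries allow, and 49 such tests were made. Leaving out 1 library at a time, the log2 fold change stayed between 0.18 without flox 2 and 0.31 without flox 1, with edgeR adjusted p from 0.301 to 0.501. The unadjusted p was 0.0255 with all libraries, but 0.0668 without flox 2, 0.0605 without flox 3 and 0.051 without KO 1. Per kb of exon, the ratio of Pttg1 to Espl1, its target, was 0.728, 0.687 and 0.740 in flox and 0.867, 0.906, 0.730 and 0.760 in KO, with KO 3 inside the flox range.

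Midzone and cytokinesis genes (8 genes) had 4 above and 4 below 0, with a median of -0.0058. It was 0.016 with scaling by total counts, 0.023 without flox 1 and -0.027 without flox 2. Prc1, which bundles the midzone microtubules, stood at 201, 164 and 172 CPM in flox 1 to 3 and 191, 171, 191 and 178 CPM in KO 1 to 4, a change of 0.027 (SE 0.09, adjusted p = 0.932). Kif23, the motor of the centralspindlin complex, was the steadiest of the 49 genes: its highest library was 1.04 times its lowest, at 158 to 162 CPM in flox and 159.5 to 165 CPM in KO, a change of 0.016 (SE 0.06, adjusted p = 0.943). Its partner Racgap1 ran from 209.7 to 221 CPM and from 206 to 230.4 CPM. Kif20b, a motor of late cytokinesis, stood at 88.1, 81.7 and 73.4 CPM in flox 1 to 3 and 89.8, 71.9, 67.5 and 70.9 CPM in KO 1 to 4; KO 1 was the highest library and KO 3 the lowest, and the log2 fold change was -0.11 (SE 0.11, adjusted p = 0.711). Kif4, Kif20a, Anln and Ect2, which encode a chromosome and midzone motor, a midzone motor, the contractile ring scaffold anillin and an activator of RhoA, had log2 fold changes of 0.032, -0.063, -0.014 and -0.053.

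Chromosome structure genes (7 genes) had 5 above and 2 below 0, with a median of 0.018. It was 0.090 without flox 1 (6 of 7 above 0) and -0.027 without flox 2 (2 of 7). Mki67, the Ki-67 coat protein of mitotic chromosomes and the usual histological marker of dividing cells (chromosome 7, 135689784 to 135716361, GRCm38), stood at 3417, 2343 and 2638 CPM in flox 1 to 3 and 2805, 2480.3, 3274 and 3039 CPM in KO 1 to 4. Flox 1 was the highest and flox 2 the lowest of the 7 libraries, so the whole KO range lay within the flox range. Its log2 fold change was 0.051 (SE 0.14, adjusted p = 0.923), with an interval of -0.27 to 0.37, and was 0.22 without flox 1 and -0.044 without flox 2. Top2a, the topoisomerase that untangles sister chromatids, stood at 999, 922 and 913 CPM in flox 1 to 3 and 1007, 882, 954 and 966 CPM in KO 1 to 4, a change of 0.012 (SE 0.08, adjusted p = 0.971). Smc2 and Smc4, the condensin ATPases, gave -0.0014 and -0.05, and the condensin I subunits Ncapd2, Ncapg and Ncaph gave 0.083, 0.025 and 0.018.

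**Figure D3:**
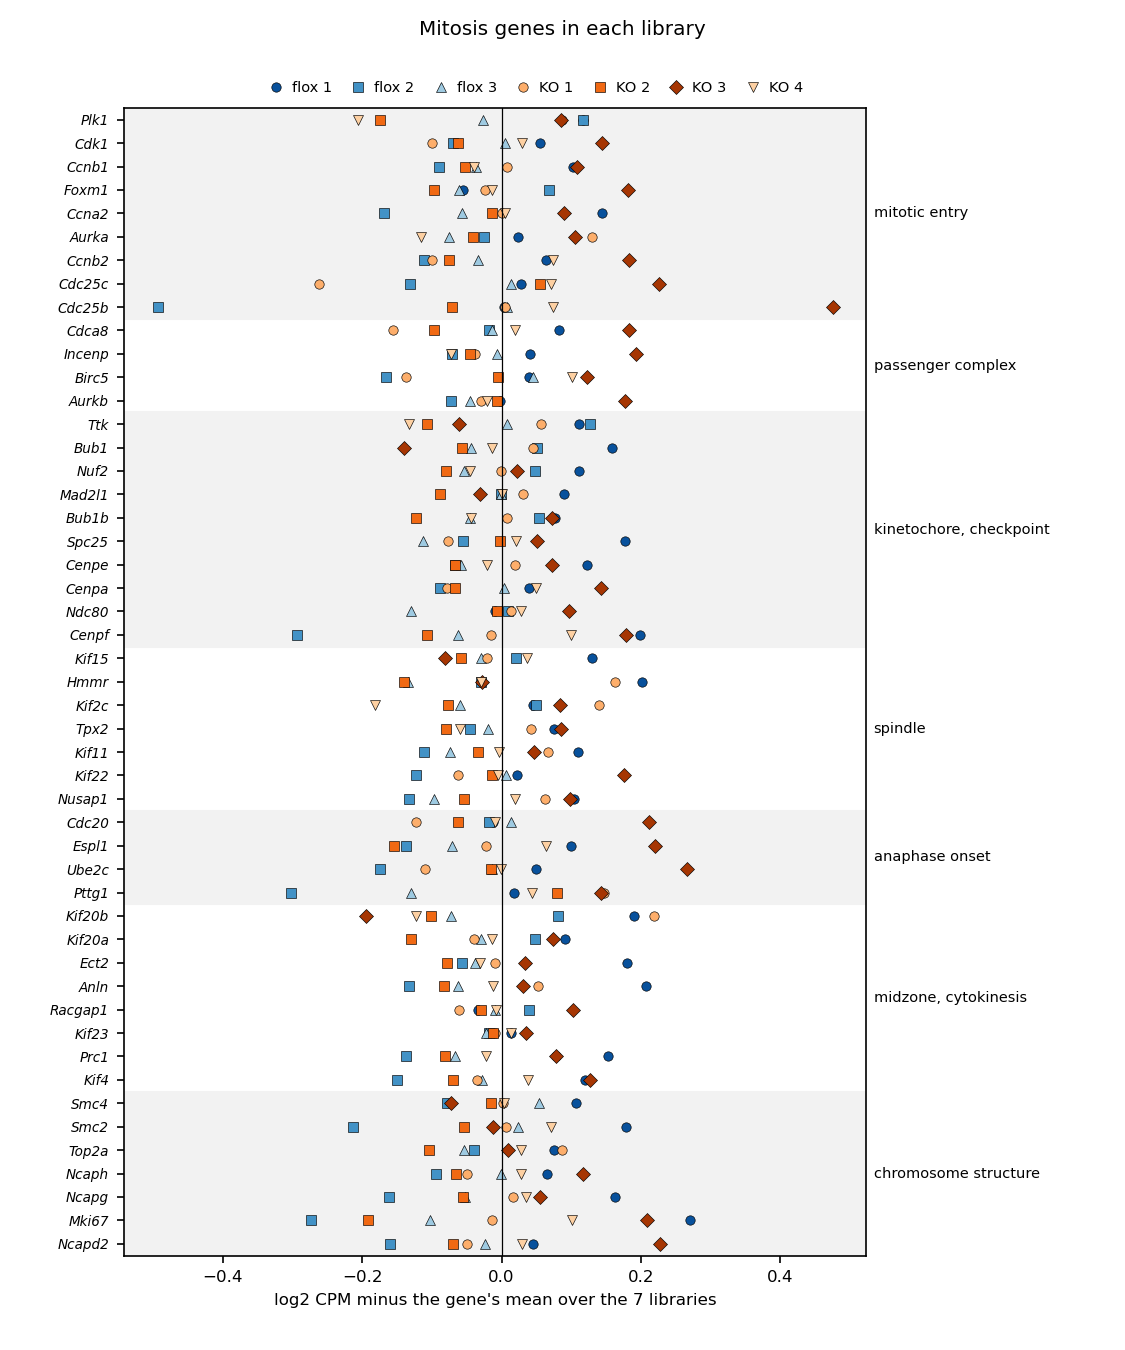
Log2 CPM of each of the 49 genes (y axis, grouped by role) in each library, minus the gene's mean over the 7 libraries (x axis); blue symbols are flox and orange or brown symbols KO. The colours mix along nearly every row; flox 1 and KO 3 lie to the right in most rows and flox 2, flox 3 and KO 2 to the left, and Cdc25b is the widest row.

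The spread of the 49 genes was set beside that of all tested genes at or above the level of the lowest of them, which are not matched to them on level. The SD of log2 CPM over the 7 libraries had a median of 0.096 across the set, against 0.12 over these 6854 genes, and 34.97% of those genes varied less than the median gene of the set. In 40 of 49 genes the highest library was under 1.3 times the lowest. KO 3 was the highest library for 22 genes and flox 1 for 21, while flox 2 was the lowest for 22 and KO 2 for 11. Flox 1 stood above the gene's own mean in 44 genes and KO 3 in 41. The counts were 12 for flox 2, 10 for flox 3, 23 for KO 1, 2 for KO 2 and 25 for KO 4.

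The 2 highest libraries led in different role groups, by a narrow count in some. KO 3 was highest for all 4 passenger genes, 3 of 4 anaphase genes and 6 of 9 entry genes (flox 1 for 2). Flox 1 was highest for 7 of 10 kinetochore and checkpoint genes (KO 3 for 2) and 4 of 7 spindle genes (KO 3 for 2). It was also highest for 4 of 7 chromosome structure genes (KO 3 for 2) and 4 of 8 midzone genes (KO 3 for 3). The ratio of KO 3 to flox 1 ran from 0.766 for Kif20b, 0.813 for Bub1 and 0.853 for Hmmr to 1.17 for Cdc20, 1.18 for Foxm1 and 1.39 for Cdc25b. These genes were chosen after their values were seen.

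Levels between genes were compared per kb of merged exons, which counts exons of all annotated transcripts and so lowers genes with long rare exons. Mki67 was the highest, at 278 ± 55.1 CPM per kb (SD, n = 3) in flox and 288 ± 33.7 (SD, n = 4) in KO. Ccnb2 (125 ± 7.61 and 129 ± 12.05), Smc4 (114 ± 7.44 and 109.8 ± 2.70) and Top2a (105 ± 5.23 and 106 ± 5.77) followed, and Smc4 and Top2a did not differ beyond their spread. Cdc25c (5.28 ± 0.316 and 5.51 ± 0.749), Ttk (8.45 ± 0.374 and 7.66 ± 0.455) and Ndc80 (9.59 ± 0.496 and 10.1 ± 0.317) were the lowest. Cdk1 (33.7 ± 1.45 and 33.9 ± 2.60) and Aurka (33.0 ± 1.13 and 34.1 ± 2.75) stood side by side in the middle.

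**Figure D4:**
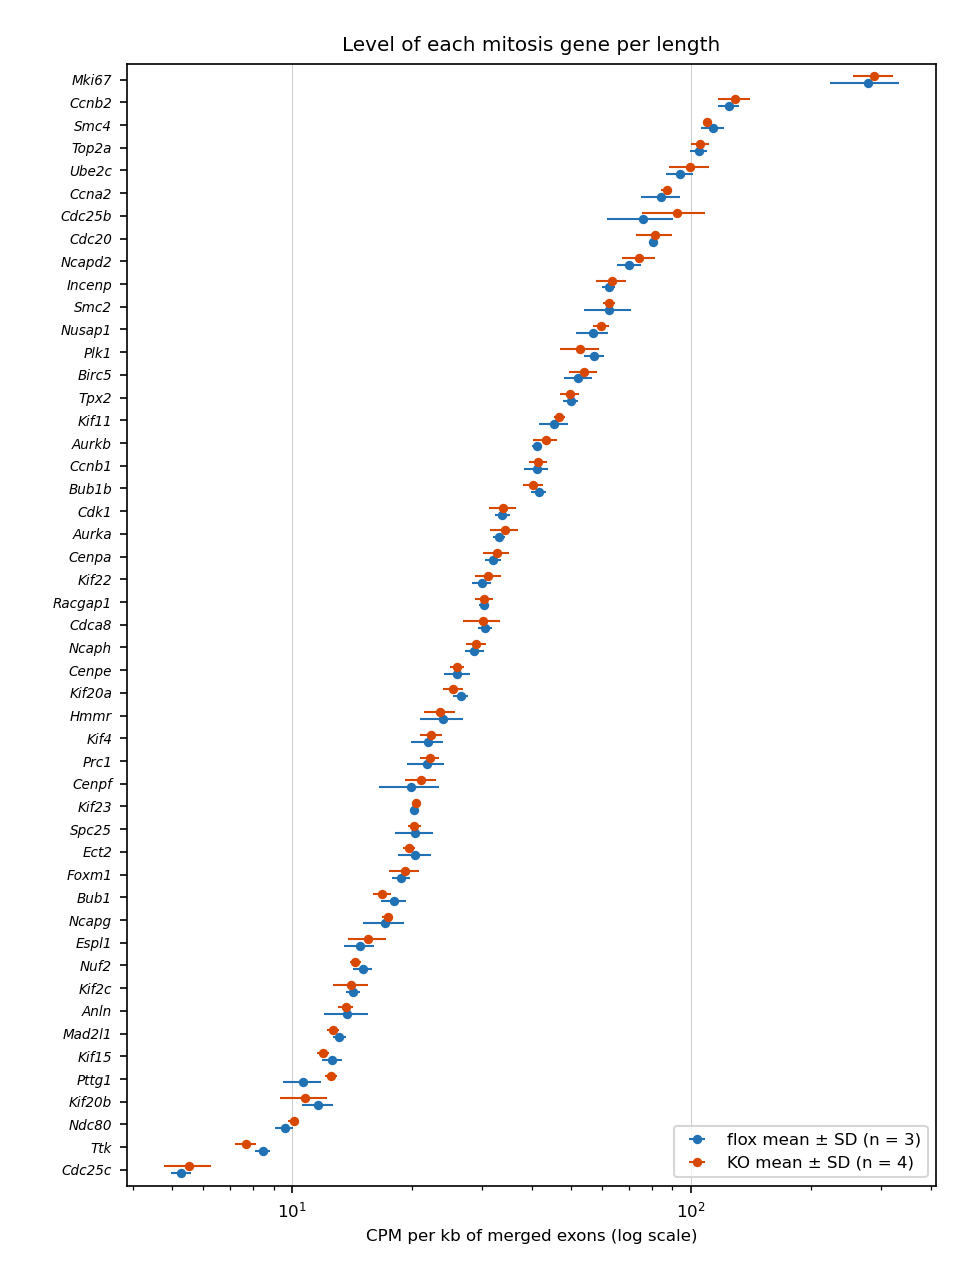
Level of each of the 49 genes per kb of merged exons (x axis, CPM per kb, log scale), with points for the group mean and lines for the SD (blue, flox, n = 3; orange, KO, n = 4). The genes span from 5.28 CPM per kb for Cdc25c to 278 for Mki67 in flox, and the lines of the groups overlap in 48 of 49 rows, with Pttg1 the exception.

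The 18 ratios between partner genes differed in how far they moved between libraries. The widest was Cdc25b to Cdc25c, the phosphatase genes, from 12.1 to 18.7 per kb (CV 14.7% over the 7 libraries). Among the steadier ones, Ccna2 to Ccnb1 lay between 1.97 and 2.14 in all 7 libraries, Aurkb to Incenp between 0.654 and 0.698, and Racgap1 to Kif23 between 1.44 and 1.56. For condensin, Ncapd2 to Ncaph lay between 2.40 and 2.48 in flox and between 2.504 and 2.71 in KO, apart by a narrow gap, and Smc2 to Smc4 between 0.510 and 0.588. The ratios of Mki67 to Top2a (CV 11.3%) and of Pttg1 to Espl1 (CV 10.4%) were less steady, the former at 3.06, 2.28 and 2.59 in flox and 2.496, 2.52, 3.07 and 2.82 in KO. The Mki67 to Top2a ratio was highest in flox 1 and KO 3, the 2 libraries with most mitotic transcripts, and lowest in flox 2.

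The lost microRNAs and their possible sites in this set were listed because the genotype removes them. The cluster makes miR-181a-5p and miR-181b-5p, which share a seed (bases 2 to 8, in capitals); identical mature sequences are also made from the cluster on chromosome 1, which the genotype label does not name. Mature sequences are from RefSeq, GRCm38.p6.
miR-181a-5p (chr2:38852741-38852763, + strand): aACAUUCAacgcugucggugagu
miR-181b-5p (chr2:38853845-38853868, + strand): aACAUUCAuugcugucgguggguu

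A seed match (TGAATGT, or with a following A an 8mer) was found in the longest annotated 3′ UTR of 9 of the 49 genes (18.4%), against 17.8% of 14275 tested genes with a 3′ UTR. The UTRs were from GENCODE M21 and shorter in this set, with a median of 603 bases against 1129. The 3 genes with an 8mer are shown with the match in capitals (GRCm38).
Ccna2 (chr3:36566135-36566156, - strand): ttcacaatcacttcTGAATGTA
Pttg1 (chr11:43420494-43420515, - strand): tgagattcattagaTGAATGTA
Smc2 (chr4:52487408-52487429, + strand): caataattttttggTGAATGTA

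The other 6 genes, Aurkb, Ccnb1, Cenpf, Hmmr, Kif4 and Nusap1, held the shorter 7mer-m8 match. Log2 fold changes of the 9 genes ran from -0.024 for Hmmr to 0.24 for Pttg1, with a median of 0.042, against 0.014 for the 40 genes without a match and -0.016 for all tested genes with one. The 3 genes with an 8mer gave 0.042 for Ccna2, 0.24 for Pttg1 and -0.0014 for Smc2, and 0 of the 9 passed. In Pttg1 the match lies in a 3′ UTR of 796 bases that 1 of 7 coding transcripts carries, and the shortest of the 7 has 29 bases. Gene-level counts do not show which of these transcripts the marrow used.

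Other genes of the same processes also lay near 0. Of 71 further mitosis genes, 44 were higher and 27 lower (median 0.025), 0 passed the edgeR test and 0 had an unadjusted p under 0.05. The lowest p values belonged to Fbxo5, an APC/C inhibitor (0.18, SE 0.09, edgeR adjusted p = 0.368), and Iqgap3, a cortical scaffold (-0.19, SE 0.09, adjusted p = 0.374). Among 16 genes that encode APC/C subunits, the enzyme Ube2s and the activator Fzr1, 7 were higher (median -0.027), and of 15 cohesin and condensin II genes 11 were higher (median 0.039), with 0 under an unadjusted p of 0.05 in either list. The S phase genes, of an earlier phase of the cell cycle, had a median of 0.044, with 44 of 61 higher. Among them 1 was under an unadjusted p of 0.05, Uhrf1, a DNA methylation maintenance factor (0.24, SE 0.11, edgeR adjusted p = 0.353).

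The list of DREAM components, cell cycle inhibitors and other restraints on division (23 genes, median 0.053) had 3 genes under an unadjusted p of 0.05 (13.04%, against 14.1% of all tested genes) and 0 that passed. Btg2, an antiproliferative early response gene, gave 0.55 (SE 0.14, edgeR adjusted p = 0.195) and Btg1, its relative, 0.27 (SE 0.12, adjusted p = 0.349). Tfdp1, the dimer partner of the E2F factors and the last of the 3, gave -0.18 (SE 0.07, adjusted p = 0.278). Cdkn1a, the p21 inhibitor of cyclin-dependent kinases, was not among the 3 (edgeR unadjusted p = 0.0617) and gave 0.34 (SE 0.16, adjusted p = 0.378).

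Markers of the lineages that divide in marrow differed more between libraries than the mitosis genes did. Pro-B and pre-B markers summed to 80.5, 480.3 and 775 CPM in flox and 1052, 828, 1028 and 892 CPM in KO. All 13 were higher in KO, 3 of them (23.1%) under an unadjusted edgeR p of 0.05. Of all tested genes, 14.1% fell under that p, 5.89% higher in KO and 8.17% lower. Flox 1, with the fewest pro-B and pre-B transcripts, had the highest summed mitosis genes, though KO 3 was higher when Mki67 was left out. Primary granule markers of promyelocytes summed to 4145, 6372 and 3609 CPM in flox and 2959.6, 3662, 2615 and 3118 CPM in KO, and all 6 were lower at an unadjusted p under 0.05. Flox 2, highest in these markers, had the lowest summed mitosis genes. Erythroid markers summed to 62216, 37105 and 51230.4 CPM in flox and 59349, 58381, 77104 and 59907 CPM in KO, all 16 higher in KO, with flox 2 the lowest library and KO 3 the highest. In these 3 lists 0 markers passed the edgeR test over all genes, and their part in the levels of the mitosis genes was not tested. Later neutrophil granule markers (11 of 11 lower, 7 at an unadjusted p under 0.05) summed to 41957 to 59213 CPM in flox and 33461 to 42293 CPM in KO. Megakaryocyte markers (8 of 8 lower, 7 at that p) summed to 454 to 863 and 342 to 508 CPM, with 0 passing in either list. Intestinal epithelium markers, genes of the gut lining, summed to 67.2 to 147 and 162 to 278 CPM. All 11 were higher in KO and 7 passed, where 26 of the 17920 tested genes (0.145%) did. The marker lists were chosen with earlier results of these data known, so their counts are descriptions and not tests of the lists.

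**Figure D5:**
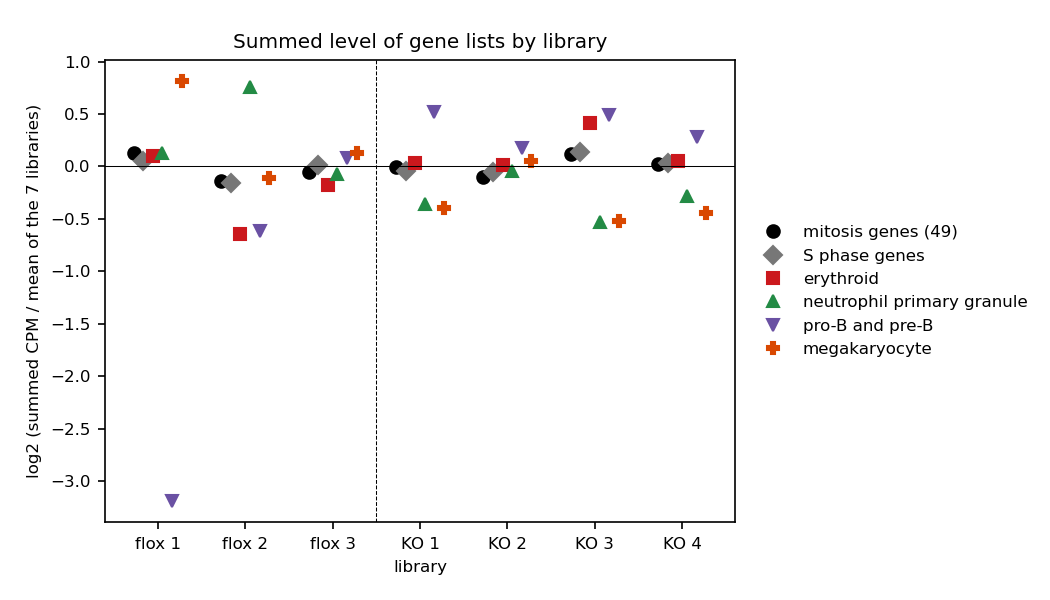
Summed CPM of 6 gene lists in each library (x axis), as log2 of the ratio to the mean of the 7 libraries (y axis); 1 symbol per list, and the dashed line separates flox from KO. The mitosis genes (black circles) and S phase genes (grey diamonds) stay close to 0 in every library, whereas the pro-B and pre-B markers of flox 1 fall far below it.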

How the data were processed

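The authors deposited raw read counts per Ensembl gene, with a column for each library. Per the submitters' processing notes, the tools were Trimmomatic 0.36, STAR 2.5.2b and featureCounts (Subread 1.5.2), and the build was GRCm38. Annotation release, strand setting and the handling of reads shared by genes: not given in the sources. They bear on the 16 genes of the set whose exons overlap another gene, 7 of them over more than 10% of their exons (Ccna2, Cdc25c, Kif20a, Kif4, Ncapg, Prc1 and Ube2c), and on 4 with a named pseudogene. Unlike Tnnc2, some overlapping genes were expressed. Cdc23 (over 29.3% of the Kif20a exons) stood at 50.6 to 60.8 CPM, Exosc9 (12.5% of Ccna2) at 29.6 to 33.5 and Pdzd11 (15.1% of Kif4) at 20.3 to 26.0. Their part in the counts was not tested.

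Each column carries a code that 1 sample's description holds, and the genotype label sets the group. Symbols, positions and merged exon lengths came from GENCODE M21 on GRCm38, which matched 49056 of the 49315 IDs. Software was R 4.3.3 with edgeR 4.0.16, DESeq2 1.42.0 and limma 3.58.1. Genes were filtered on counts (filterByExpr, minimum count 10; 17920 genes), scaled by TMM and fitted with robust glmQLFit and glmQLFTest, two-sided, KO minus flox, with Benjamini-Hochberg adjustment over all tested genes and a threshold of 0.05. Standard errors and 95% intervals follow from the quasi-likelihood F statistic. Library pairs of 1 group differed by more than sampling noise (chi-square over its degrees of freedom 19.0 to 90.6), so each of the 7 was kept as a sample. The procedure was tested on simulated data.

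The 49 genes, the comparison lists and the marker lists were chosen with earlier results of these data known. All 49 are named; values in every library are given for 17 well known ones, for the 10 with the lowest p and for the 3 highest and 3 lowest fold changes, and up to 4 genes of each other list by lowest p were eligible for naming. Genes of the set given only by a range or a fold change are the others. Alternatives were other scalings, DESeq2, limma-voom, other count filters, non-robust dispersion, removal of haemoglobin and mitochondrially encoded genes, a replicate block, and leaving out each library.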

Additional observations from a re-analysis of the deposited data

Results flagged for a closer look

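In KO, 2 genes of the set had 1 library far from the other 3, by a gap test for groups of 4 samples. Aurkb stood at 140.8 CPM in KO 3 and at 122 to 124 CPM in the other KO libraries, and Incenp at 310.4 CPM in KO 3 and 258 to 265 CPM in the others. Both encode subunits of the chromosomal passenger complex. Among 50 such groups checked (49 genes and their sum), chance marks about 1 in 20.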

How the results depend on the processing

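Under every alternative tried, 0 of the 49 genes passed; without 1 library the count was 0 in all 7 cases. The number of genes under an unadjusted p of 0.05 was 1 (Pttg1) and ranged from 0 (without flox 2 or flox 3) to 2 without 1 library. The 2, without KO 1, were Ttk (edgeR unadjusted p = 0.0314, adjusted p = 0.401) and Kif20b (edgeR unadjusted p = 0.0359, adjusted p = 0.407), not Pttg1. It was 1 under the other scalings, filters and tools. Estimates of genes that passed in no fit were compared by size, not sign; 0 to 11 genes changed sign, 11 of them without flox 2. The median log2 fold change lay between 0.015 and 0.038 under the other scalings, filters and tools and the block, and between -0.0086 and 0.067 without 1 library (lowest without flox 2, highest without flox 1). Scaling by library size alone gave 37 genes higher, against 30. Without flox 1, 7 genes moved by more than their standard error, all upward: Mki67, Cenpf, Ccna2, Ncapg, Prc1, Anln and Spc25.

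Replicate numbers occur in both groups, and the deviations of same-numbered libraries were correlated weakly or not at all (r = -0.022, 0.077 and 0.023 for numbers 1 to 3). Over all pairs of a flox and a KO library, r ran from -0.085 to 0.077. Flox 2 and flox 3 correlated best with the KO library of their own number, and flox 1 with KO 3 (r = 0.054). With the replicate number as a block over 6 libraries, 2 genes had an unadjusted p under 0.05, Pttg1 and Cdc25b, against 1 without the block on the same libraries, an alternative added after seeing the data; 0 passed in both. Precision limits single genes: log2 changes of 0.24 in Pttg1 and 0.28 in Cdc25b did not pass, so a gene that was not called is not shown to be unchanged.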
